A study of Mus musculus with 10 samples.

Results

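The data compared here are the 8 RNA-seq libraries made from the colons of mice given azoxymethane and dextran sodium sulfate (AOM/DSS), whatever their diet, with the 2 libraries of untreated Control colon. They are all 10 libraries of the series, and the question was which genes moved in every carcinogen-treated group. All mice were C57BL/6. The AOM/DSS mice received 10 mg/kg AOM under the skin at 6 weeks of age and, a week later, 1.2% DSS in the drinking water for 7 days. The Model group (2 libraries) ate the AIN-93M diet alone. The ASA group (2 libraries) ate the same diet with 0.02% aspirin, the CUR group (2 libraries) with 2% curcumin, and the ASA+CUR group (2 libraries) with 0.01% aspirin and 1% curcumin. The Control mice (2 libraries) received saline in place of AOM, no DSS and the AIN-93M diet. The labels call the AOM/DSS libraries tumor samples and the Control libraries colonic tissue. The protocol says that the proximal end and palpable tumours were taken out before the rest of the right portion was frozen. Treatment and tissue label therefore coincide and cannot be told apart. The labels do not tell whether 2 libraries of the same group are 2 animals. The p-values then speak for the spread among these libraries.

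Azoxymethane is a carcinogen that, once activated in the body, alkylates DNA in the colon epithelium, and DSS in the drinking water injures that epithelium and starts colitis. Tumours of this model commonly carry activating mutations of beta-catenin, the protein that carries Wnt signals to the nucleus. The normal colon lining renews from Wnt-driven stem cells at the crypt base into absorptive colonocytes, mucus-producing goblet cells, hormone-producing enteroendocrine cells and chemosensory tuft cells. Lysozyme-producing Paneth cells belong to the small intestine and are rare in healthy mouse colon.

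The deposited values are FPKM (fragments per kilobase of transcript, scaled to the mapped total), summed here over the transcripts of each gene. They added up to between 515959 and 720895 per library, and between 12781 and 13283 genes reached 1 FPKM. The number of reads behind them is unknown. The first principal component held 54.6% of the variance of log2(FPKM + 1), with scores of 9.04 to 40.7 in AOM/DSS libraries and -85.4 in both Control libraries. Correlations over genes were 0.842 to 0.900 between an AOM/DSS and a Control library and 0.925 to 0.986 between 2 AOM/DSS libraries. ASA replicate 0 was nearer to ASA+CUR replicate 0 (r = 0.986) than to ASA replicate 1 (r = 0.954). Most epithelial markers were high in all 10 libraries. Epcam, an adhesion protein of epithelium, read 746 to 1352 FPKM in AOM/DSS libraries (median 806), against 805 and 912 FPKM in Control libraries. Cdh1, E-cadherin, read 245 to 393 FPKM in AOM/DSS libraries (median 342), against 305 and 399 FPKM in Control libraries. The groups overlapped for both (adjusted p = 0.952 and adjusted p = 0.758). They also overlapped for the markers Cdh17, Krt8, Krt19 and Vil1. Lgals4 read 1413 to 2666 FPKM in AOM/DSS libraries (median 2012), against 2773 and 3315 FPKM in Control libraries. It was below Control in all 8 AOM/DSS libraries but short of the threshold (limma moderated test, adjusted p = 0.0667). Cdx2 read 5.22 to 126 FPKM in AOM/DSS libraries (median 36.2), against 139 and 124 FPKM in Control libraries. Markers of pancreas (Prss2, Cela3b, Cpa1) and small-intestinal enterocytes (Lct, Sis, Apoa4) stayed under 1 FPKM in all 10 libraries. Of the other small-intestinal markers, Fabp6, an ileal bile acid binder, read 0 to 4.57 FPKM in AOM/DSS libraries (median 1.89), against 6.19 and 7.73 FPKM in Control libraries, and Apoa1 read 0 to 1.30 FPKM in AOM/DSS libraries (median 0.157), against 0.101 and 0 FPKM in Control libraries.

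Of 14061 genes tested, 4435 (31.5%) passed an adjusted p of 0.05 in AOM/DSS against Control. Of these, 2057 (14.6% of genes tested) were higher and 2378 (16.9%) lower. The change was at least 2-fold for 2113, with 993 higher and 1120 lower. A log2 change is the mean of the 4 AOM/DSS group means of log2(FPKM + 1) minus the Control mean, given ± its standard error. The scale understates the change of genes near 0. The test is limma's moderated test with Benjamini-Hochberg adjustment over all genes tested. Over all genes tested the median change was 0.02. For 4114 of the called genes (29.3% of genes tested) all 8 AOM/DSS libraries lay on the same side of both Control libraries, 1927 above and 2187 below. That arrangement, called or not, held for 2825 genes above (20.1%) and 2861 below (20.3%). Another 321 genes were called although some AOM/DSS library overlapped the Control range. In 747 of the 4114 genes every AOM/DSS library differed at least 2-fold from the nearer Control library, 326 upward and 421 downward. The 4 AOM/DSS groups set against Control 1 at a time, with the same Control libraries each time, shared 1536 called genes of the same direction, 620 higher and 916 lower. With 1 Control library left out, the remaining one is assumed to vary like the AOM/DSS groups and the test loses precision: 1662 genes were called without Control replicate 0 and 1567 without Control replicate 1. Over the 4435 genes called with both Control libraries, the median size of the change was 0.978 and 0.953 on the log2 scale in these fits. It was 0.971 with both Control libraries, and none of these genes changed sign. These genes were chosen with both Control libraries, and 4114 of them lay outside both. The sign and size were therefore nearly fixed in advance and test nothing. Of the gene lists described here, those with at most 31.5% of their tested members called, the share over all genes, were the Hedgehog, cell cycle, endothelial, B and plasma cell, class II presentation, claudin and junction, glycolysis, unfolded protein, immediate early, heat shock, circadian clock and housekeeping genes, and nothing is read from their counts.

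Called genes with all 8 AOM/DSS libraries outside the Control range were ranked by their shift in the least affected AOM/DSS library. The first of the rises and a choice among the leading falls are given here. Cnn1 and Actg2, which ranked above Des, are given with the smooth muscle genes. For all genes ranked in this way the separation from Control was part of the choice. Defa24, an alpha-defensin of Paneth cells, read 154 to 2048 FPKM in AOM/DSS libraries (median 661) and was listed at 0 in both Control libraries (adjusted p = 8.73e-05). Lyz1 (chr10:117287795-117292868 in GRCm38), Paneth cell lysozyme, read 897 to 2760 FPKM in AOM/DSS libraries (median 1219), against 7.24 and 6.48 FPKM in Control libraries (log2 change 7.42 ± 0.22, adjusted p = 4.83e-06). Mmp7 (chr9:7692090-7699585), the metalloproteinase that activates alpha-defensins in mouse Paneth cells, read 220 to 526 FPKM in AOM/DSS libraries (median 361), against 0.811 and 1.44 FPKM in Control libraries (log2 change 7.44 ± 0.21, adjusted p = 4.83e-06). The 8 AOM/DSS libraries stood far above both Control libraries in all 3 genes.

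Among the falls, Mptx1, a mucosal pentraxin, read 1.47 to 205 FPKM in AOM/DSS libraries (median 9.53), against 39340 and 5012 FPKM in Control libraries (log2 change -9.82 ± 1.81, adjusted p = 0.00542). The Control libraries differed widely from each other for Mptx1, yet the highest AOM/DSS library lay below the lower of them; without Control replicate 0 its adjusted p was 0.0768. Cfd, adipsin, a complement factor that fat cells secrete, read 0 to 1.04 FPKM in AOM/DSS libraries (median 0), against 26.4 and 29.5 FPKM in Control libraries (log2 change -4.71 ± 0.24, adjusted p = 4.71e-05). Of the 8 AOM/DSS libraries, 6 were listed at 0. Des, desmin, the intermediate filament of muscle, read 13.9 to 83.3 FPKM in AOM/DSS libraries (median 25.8), against 1451 and 851 FPKM in Control libraries (log2 change -5.15 ± 0.23, adjusted p = 3.67e-05). Somatostatin, Sst, a hormone of enteroendocrine D cells and of enteric neurons, read 0 to 3.09 FPKM in AOM/DSS libraries (median 0.675), against 86.5 and 46.8 FPKM in Control libraries (log2 change -5.11 ± 0.34, adjusted p = 8.46e-05). Every AOM/DSS library lay below both Control libraries for Cfd, Des and Sst. Of the other 11 falls, Car3 (a carbonic anhydrase of muscle and fat), Calb2 (calretinin) and Scg2 (secretogranin II) lay between -3.54 and -3.78 on the log2 scale.

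**Figure D1:**
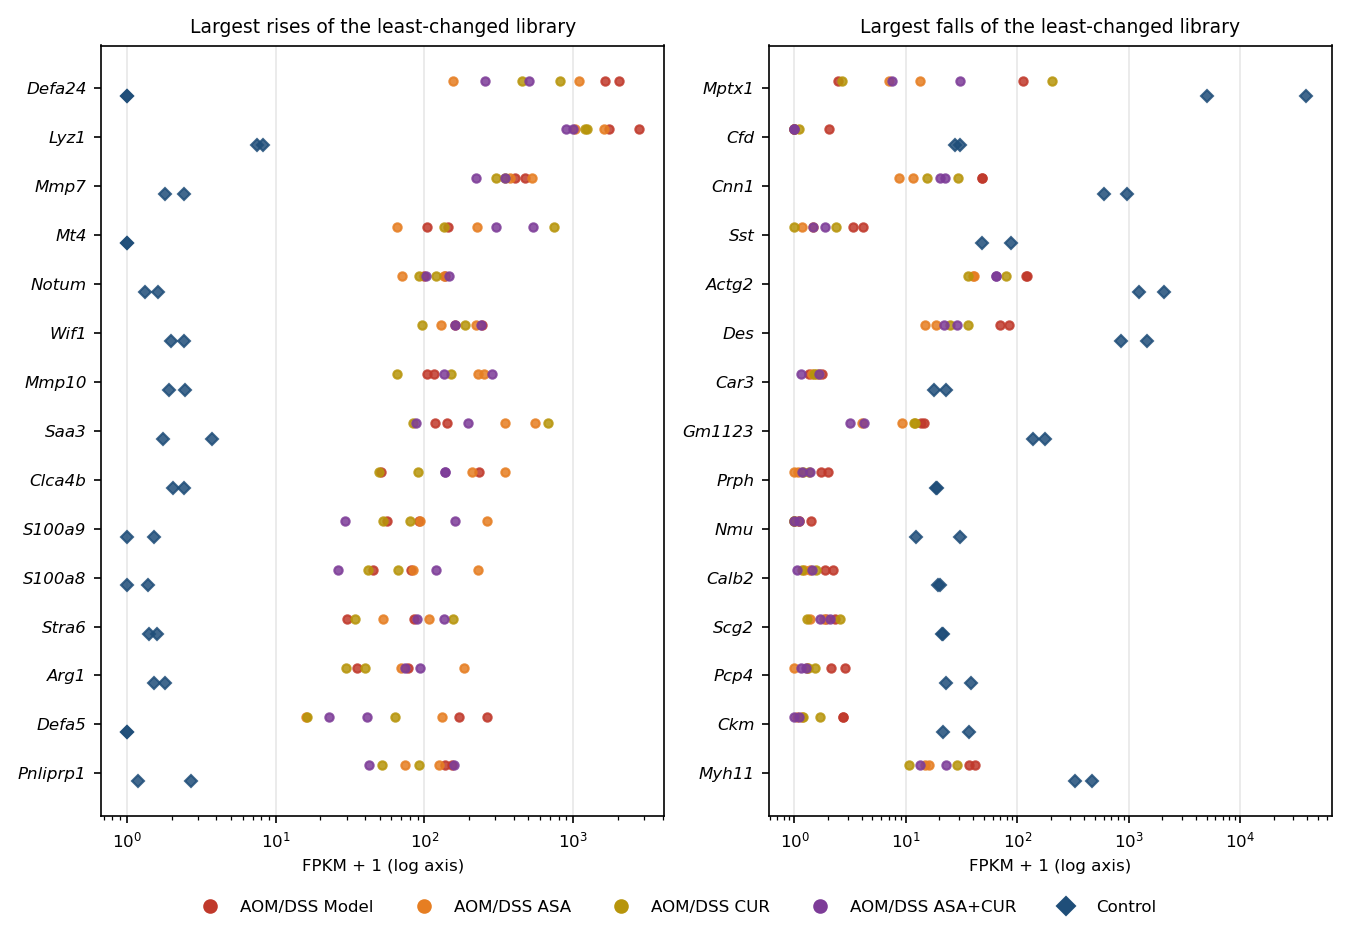
FPKM plus 1 on a log axis for the 15 rises (left) and the 15 falls (right) with the largest shift of the least-changed AOM/DSS library, all 10 libraries drawn as points, AOM/DSS as circles coloured by diet and Control as diamonds. The genes were picked for having every AOM/DSS library outside the Control range. No circle therefore reaches the diamonds of its gene, from Lyz1 (897 to 2760 FPKM in AOM/DSS libraries, 7.24 and 6.48 FPKM in Control libraries) to Myh11 (9.67 to 40.5 FPKM in AOM/DSS libraries, 468 and 327 FPKM in Control libraries).

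Some genes belong to several lists, so the list results are not separate lines of evidence. Mmp7 is in the Wnt, Paneth cell and metalloproteinase lists, and Arg1 in the polyamine and macrophage lists. Wnt target and feedback genes rose together. Of 26 tested members 23 rose and 2 fell, with a list median of 2.02, and 20 without Control replicate 0 and 18 without Control replicate 1 still rose. The secreted inhibitors Notum and Wif1 were among the largest rises of the list. Notum (chr11:120653788-120661193), an enzyme that strips the lipid from Wnt proteins, read 69.3 to 146 FPKM in AOM/DSS libraries (median 110.1), against 0.617 and 0.328 FPKM in Control libraries (log2 change 6.24 ± 0.27, adjusted p = 2.84e-05). Wif1 (chr10:121034004-121100642), which binds Wnt proteins outside the cell, read 95.6 to 243 FPKM in AOM/DSS libraries (median 174), against 0.983 and 1.43 FPKM in Control libraries (log2 change 6.30 ± 0.31, adjusted p = 4.71e-05). Every AOM/DSS library exceeded the Control libraries by far in both genes. Inside the cell, Axin2, a scaffold of the beta-catenin destruction complex that Wnt signals induce, read 44.1 to 111 FPKM in AOM/DSS libraries (median 75.97), against 13.9 and 13.1 FPKM in Control libraries (log2 change 2.40 ± 0.25, adjusted p = 0.000414). Rnf43, a ubiquitin ligase that removes Wnt receptors, read 35.9 to 64.4 FPKM in AOM/DSS libraries (median 50.8), against 8.19 and 8.99 FPKM in Control libraries (log2 change 2.39 ± 0.17, adjusted p = 9.58e-05). The transcription factor Myc read 37.1 to 60.5 FPKM in AOM/DSS libraries (median 54.9), against 18.02 and 18.8 FPKM in Control libraries (log2 change 1.42 ± 0.19, adjusted p = 0.00143). None of the 3 genes overlapped between the groups. The members that fell, Nkd2 and Sfrp5, are also Wnt inhibitors and were picked out after their values were seen. Nkd2 read 0.508 to 4.22 FPKM in AOM/DSS libraries (median 0.806), against 7.31 and 4.85 FPKM in Control libraries (log2 change -1.72 ± 0.38, adjusted p = 0.0116). Sfrp5 read 0.0379 to 0.455 FPKM in AOM/DSS libraries (median 0.293), against 1.70 and 1.52 FPKM in Control libraries (log2 change -1.07 ± 0.17, adjusted p = 0.00246). Both lay below Control in all 8 libraries. For Nkd2 the adjusted p was 0.126 without Control replicate 0 and 0.0608 without Control replicate 1.

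Stem cell genes were called in both directions. Of 15 tested, 9 rose and 2 fell (median 0.71). The rises numbered 8 without Control replicate 0 and 5 without Control replicate 1. The median was 1.45 with 0.1 FPKM added in place of 1. Lgr5, a receptor for R-spondins that marks crypt base stem cells, read 7.22 to 20.3 FPKM in AOM/DSS libraries (median 11.7), against 3.15 and 4.05 FPKM in Control libraries (log2 change 1.46 ± 0.22, adjusted p = 0.00233). Lrig1, a brake on EGF receptor signalling that also marks stem cells, read 14.6 to 30.9 FPKM in AOM/DSS libraries (median 21.4), against 46.97 and 46.9 FPKM in Control libraries (log2 change -1.11 ± 0.13, adjusted p = 0.000725). Rgmb, a BMP co-receptor, read 7.83 to 13.7 FPKM in AOM/DSS libraries (median 11.8), against 37.7 and 35.8 FPKM in Control libraries (log2 change -1.66 ± 0.20, adjusted p = 0.000845). The groups did not overlap in these genes, with AOM/DSS above Control for Lgr5 and below it for Lrig1 and Rgmb. Prox1 is a member of the endothelial list and not of the stem cell list. This transcription factor of lymphatic vessels, which is also expressed in colon tumour epithelium, read 5.74 to 70.04 FPKM in AOM/DSS libraries (median 40.98), against 0.677 and 0.813 FPKM in Control libraries (log2 change 4.24 ± 0.55, adjusted p = 0.00117). The lowest library, CUR replicate 0, was still above both Control libraries.

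Genes of the fetal-like state that injured colon epithelium takes on rose in 15 of 21 tested members (median 1.69) and fell in none. The rises numbered 9 without Control replicate 0 and 9 without Control replicate 1. Cldn4, a tight junction claudin, read 179 to 487 FPKM in AOM/DSS libraries (median 314), against 18.2 and 34.6 FPKM in Control libraries (log2 change 3.59 ± 0.31, adjusted p = 0.000207). Anxa8, a membrane-binding annexin, read 88.7 to 347 FPKM in AOM/DSS libraries (median 216), against 28.1 and 42.7 FPKM in Control libraries (log2 change 2.47 ± 0.31, adjusted p = 0.00102). The groups were apart in both genes, and so they were for Krt7, a keratin, at 248 to 426 FPKM in AOM/DSS libraries (median 325), against 83.7 and 92.3 FPKM in Control libraries (log2 change 1.90 ± 0.16, adjusted p = 0.000172). In the EGF family, 5 of 11 tested members rose and 1 fell, and 3 rose when either Control library, ASA+CUR replicate 1 or the 3 libraries with high Krt5 (Model replicate 0, ASA replicate 0 and ASA+CUR replicate 0) were left out. The ligand Nrg1 read 3.36 to 16.9 FPKM in AOM/DSS libraries (median 9.83), against 1.56 and 0.697 FPKM in Control libraries (log2 change 2.23 ± 0.31, adjusted p = 0.00167). Egf itself read 0.172 to 0.549 FPKM in AOM/DSS libraries (median 0.261), against 1.56 and 3.002 FPKM in Control libraries (log2 change -1.30 ± 0.19, adjusted p = 0.00202). Nrg1 lay above Control in every AOM/DSS library and Egf below. Of 18 BMP pathway genes, 7 rose and 5 fell. The rises numbered 3 without Control replicate 0 and 2 without Control replicate 1. The ligand Bmp7 read 23.5 to 46.7 FPKM in AOM/DSS libraries (median 27.8), against 4.85 and 4.91 FPKM in Control libraries (log2 change 2.42 ± 0.23, adjusted p = 0.000286). The ligand Bmp3 read 1.14 to 3.38 FPKM in AOM/DSS libraries (median 1.84), against 12.0 and 15.8 FPKM in Control libraries (log2 change -2.31 ± 0.25, adjusted p = 0.000552). The groups did not overlap for either ligand. Of 11 Hedgehog pathway genes only Foxl1, a transcription factor of the fibroblasts under the crypts, was called, at 2.30 to 6.02 FPKM in AOM/DSS libraries (median 4.31), against 0.963 and 0.796 FPKM in Control libraries (log2 change 1.53 ± 0.23, adjusted p = 0.00209); 3 were called without ASA replicate 0 and 2 without ASA replicate 1 or CUR replicate 0.

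Cell cycle genes were called in 23.3% of tested members, against 31.5% of all genes in both directions together, and all calls were rises. Mki67, the cell cycle marker Ki-67, read 11.7 to 25.4 FPKM in AOM/DSS libraries (median 18.3), against 16.9 and 13.9 FPKM in Control libraries, with the groups overlapping (adjusted p = 0.571). Of 30 cell cycle genes 7 rose and none fell (median 0.40), against 14.6% of all genes tested, and none rose when either Control library was left out. Mcm3, part of the helicase that opens DNA for replication, read 21.9 to 32.0 FPKM in AOM/DSS libraries (median 26.2), against 14.7 and 14.5 FPKM in Control libraries (log2 change 0.82 ± 0.15, adjusted p = 0.00517), but its adjusted p was 0.0560 without Control replicate 0 and 0.0626 without Control replicate 1. The count also fell to 4 without ASA+CUR replicate 1 and to 3 without the 3 Krt5-high libraries. Ribosome biogenesis genes rose in 19 of 25 tested members by small amounts (median 0.61) and fell in 1. Mybbp1a, a nucleolar protein, read 38.2 to 72.1 FPKM in AOM/DSS libraries (median 54.99), against 26.3 and 29.2 FPKM in Control libraries (log2 change 0.91 ± 0.16, adjusted p = 0.00486). Ftsj3, a pre-ribosomal RNA methyltransferase, read 23.2 to 35.7 FPKM in AOM/DSS libraries (median 29.2), against 16.4 and 17.8 FPKM in Control libraries (log2 change 0.72 ± 0.13, adjusted p = 0.00446). All AOM/DSS libraries exceeded both Control libraries for the 2 genes, whose adjusted p without Control replicate 0 was 0.0673 and 0.0651. The count of rises was 0 without Control replicate 0 and 2 without Control replicate 1, 11 without ASA+CUR replicate 1 and 5 without the 3 Krt5-high libraries. In arginine and polyamine metabolism 4 of 14 rose and 2 fell. The rises numbered 2 without Control replicate 0 and 2 without Control replicate 1. Arg1, arginase 1, read 28.5 to 185 FPKM in AOM/DSS libraries (median 70.6), against 0.812 and 0.517 FPKM in Control libraries (log2 change 5.27 ± 0.39, adjusted p = 0.000107). Nos2, the inducible nitric oxide synthase that uses the same substrate, read 2.11 to 23.6 FPKM in AOM/DSS libraries (median 8.95), against 2.04 and 0.405 FPKM in Control libraries (log2 change 2.15 ± 0.35, adjusted p = 0.00295). AOM/DSS libraries were above both Control libraries for each, by a narrow margin for Nos2 in ASA+CUR replicate 1 (2.11 FPKM, against 2.04 FPKM in Control replicate 0).

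Paneth cell genes had the highest median of the lists, 4.97, a value that rests on the added 1 FPKM (7.77 with 0.1 FPKM added) because several members were listed at 0 in both Control libraries. Of the tested members 12 of 18 rose and 1, Mptx1, fell. The rises numbered 13 without Control replicate 0 and 12 without Control replicate 1. In bulk tissue, more or fewer cells of a type cannot be told apart from more or less RNA per cell. Defa5, an alpha-defensin, read 14.9 to 264 FPKM in AOM/DSS libraries (median 51.2) and was listed at 0 in both Control libraries (adjusted p = 0.00118). Defa30, Defa20, Defa22, Defa32, Defa21 and Defa17 were likewise listed at 0 in both Control libraries and detected in all 8 AOM/DSS libraries. Alpha-defensin genes are near-identical copies, which leaves uncertain how reads were shared out. Pla2g2a is the gene of an antibacterial secreted phospholipase, and whether these mice made a working enzyme from its RNA was not tested. Pla2g2a read 199 to 438 FPKM in AOM/DSS libraries (median 283), against 22.4 and 10.5 FPKM in Control libraries (log2 change 4.10 ± 0.35, adjusted p = 0.000182). Not all antimicrobial genes went this way: Ang4, an angiogenin of Paneth and goblet cells, read 119.8 to 881 FPKM in AOM/DSS libraries (median 308), against 6377 and 633 FPKM in Control libraries and the groups overlapped (adjusted p = 0.0650). The defensins varied widely within the AOM/DSS libraries: Defa30 read 1011 FPKM in Model replicate 1 and 8.90 FPKM in ASA replicate 0. Its adjusted p of 0.00322 is from AOM/DSS against Control and does not test that spread.

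In RefSeq promoters (GRCm38.p6, 250 bases before to 50 after the start, available for 11003 tested genes) 14 short patterns were searched on both strands, and the patterns and promoters shown were chosen after the matches were seen. The TCF pattern CTTTGAT, the site read by the partners of beta-catenin, was in 6 of 12 Paneth cell promoters and in 3.18% of all promoters searched. The holders were Defa30, Defa20, Defa22, Defa32, Defa21 and Mmp7, and the defensins among them are near-copies of each other; Lyz1, Ang4, Mptx1, Mptx2, Itln1 and Habp2 had no match in this window. Of 17 promoters of Wnt target genes 3 held it. The Defa30 promoter (chr8:21134400-21134699, + strand) is shown with its match, 142 bases before the start, in capitals:
Defa30: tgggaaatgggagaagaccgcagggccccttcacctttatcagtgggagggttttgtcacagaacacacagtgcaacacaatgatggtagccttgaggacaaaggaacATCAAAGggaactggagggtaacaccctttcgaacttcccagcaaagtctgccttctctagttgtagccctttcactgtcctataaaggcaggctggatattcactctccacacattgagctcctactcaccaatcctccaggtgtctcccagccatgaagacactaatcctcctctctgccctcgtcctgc

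Epithelial defence genes were split, with 10 of 25 tested members higher and 7 lower (median 0.56, 0.32 with no filter on low values and 0.33 without the ASA group); 4 were lower without the 3 Krt5-high libraries. Saa3, an acute-phase serum amyloid, read 82.6 to 677 FPKM in AOM/DSS libraries (median 169), against 2.76 and 0.763 FPKM in Control libraries (log2 change 6.32 ± 0.70, adjusted p = 0.000563). Wfdc18, a small secreted whey acidic protein, read 212 to 470.3 FPKM in AOM/DSS libraries (median 267), against 14.6 and 12.5 FPKM in Control libraries (log2 change 4.35 ± 0.35, adjusted p = 0.000163). Both were above Control without overlap, and so were the subunits of calprotectin, a protein of neutrophils and inflamed epithelium. S100a8 read 25.4 to 228 FPKM in AOM/DSS libraries (median 72.6), against 0.378 and 0 FPKM in Control libraries (log2 change 5.91 ± 0.57, adjusted p = 0.000318). S100a9 read 28.3 to 263 FPKM in AOM/DSS libraries (median 85.5), against 0.523 and 0 FPKM in Control libraries (log2 change 6.10 ± 0.62, adjusted p = 0.000391). Saa1, a close relative of Saa3 noted after its values were seen, fell: it read 197 to 939 FPKM in AOM/DSS libraries (median 501), against 2179 and 2651 FPKM in Control libraries (log2 change -2.26 ± 0.32, adjusted p = 0.00174).

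Among matrix metalloproteinases and Timps 12 of 20 tested members rose (median 1.46) and none fell. The count was 11 without Control replicate 0 and 10 without Control replicate 1. Mmp10, stromelysin 2, read 64.0 to 283 FPKM in AOM/DSS libraries (median 142), against 1.48 and 0.917 FPKM in Control libraries (log2 change 6.11 ± 0.34, adjusted p = 5.52e-05). Mmp14, a membrane-anchored collagenase, read 102 to 163 FPKM in AOM/DSS libraries (median 122), against 45.9 and 44.9 FPKM in Control libraries (log2 change 1.45 ± 0.10, adjusted p = 8.76e-05), the narrowest spread of the enzymes named here. Adam8, a metalloprotease of leukocytes, read 8.97 to 29.5 FPKM in AOM/DSS libraries (median 13.2), against 1.34 and 0.681 FPKM in Control libraries (log2 change 2.93 ± 0.22, adjusted p = 0.000107). No AOM/DSS library overlapped Control for any of the 3. The AP-1 pattern TGANTCA, read by Fos and Jun proteins, stood in 5 of 16 promoters of the list, in 14.6% of the promoters of genes at least 2-fold higher (105 of 719), in 8.56% of those at least 2-fold lower (72 of 841) and in 6.93% of all promoters searched. The 5 holders (Mmp3, Mmp7, Mmp10, Mmp12 and Mmp13) are neighbours on chromosome 9, and Mmp8, Mmp11, Mmp14, Mmp15, Mmp23, Mmp28, Adam8 and Timp1 to Timp4 had no match in this window. Mmp13, a collagenase picked for its promoter, read 32.6 to 178 FPKM in AOM/DSS libraries (median 74.7), against 1.20 and 0.833 FPKM in Control libraries (log2 change 5.22 ± 0.39, adjusted p = 0.000107). The promoters of Mmp7 (chr9:7691840-7692139, + strand), Mmp10 (chr9:7502092-7502391, + strand) and Mmp13 (chr9:7272264-7272563, + strand) show the match in capitals, starting 63, 63 and 35 bases before the start:
Mmp7: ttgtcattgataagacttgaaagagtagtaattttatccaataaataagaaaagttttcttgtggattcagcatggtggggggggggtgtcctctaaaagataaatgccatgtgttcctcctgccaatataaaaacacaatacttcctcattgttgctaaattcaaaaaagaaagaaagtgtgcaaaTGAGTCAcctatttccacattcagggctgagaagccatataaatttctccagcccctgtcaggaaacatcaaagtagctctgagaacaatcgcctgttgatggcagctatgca
Mmp10: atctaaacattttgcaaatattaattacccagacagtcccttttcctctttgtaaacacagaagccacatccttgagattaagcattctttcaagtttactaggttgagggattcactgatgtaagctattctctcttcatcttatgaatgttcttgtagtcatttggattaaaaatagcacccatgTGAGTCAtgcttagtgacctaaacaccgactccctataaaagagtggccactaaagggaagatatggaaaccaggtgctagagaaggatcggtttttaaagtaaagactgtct
Mmp13: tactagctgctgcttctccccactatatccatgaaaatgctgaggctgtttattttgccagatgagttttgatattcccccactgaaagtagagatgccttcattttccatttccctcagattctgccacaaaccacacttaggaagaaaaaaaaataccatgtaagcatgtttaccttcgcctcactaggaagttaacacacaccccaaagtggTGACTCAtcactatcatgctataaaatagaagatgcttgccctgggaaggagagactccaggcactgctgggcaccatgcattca

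Collagen and matrix genes rose in 19 of 31 tested members and fell in 2 (median 0.99). The rises numbered 9 without Control replicate 0 and 5 without Control replicate 1. Col1a1, a chain of fibrillar type I collagen, read 80.98 to 210.4 FPKM in AOM/DSS libraries (median 138), against 53.3 and 45.1 FPKM in Control libraries (log2 change 1.46 ± 0.22, adjusted p = 0.00213). Col18a1, a basement membrane collagen, read 66.8 to 180.3 FPKM in AOM/DSS libraries (median 91.7), against 13.9 and 12.4 FPKM in Control libraries (log2 change 2.89 ± 0.30, adjusted p = 0.000419). Spp1, osteopontin, read 11.6 to 69.8 FPKM in AOM/DSS libraries (median 20.6), against 0.392 and 0.540 FPKM in Control libraries (log2 change 4.24 ± 0.61, adjusted p = 0.00189). Every AOM/DSS library was above both Control libraries for the 3 genes. Among fibroblast genes 7 rose and 4 fell of 20 tested, while the median was -0.20, on the other side of 0 from the larger count, and 0.02 over the members that reached 5 FPKM in 2 libraries. The rises numbered 4 without Control replicate 0 and 2 without Control replicate 1, none fell without either Control library, and 2 fell without Model replicate 0. Pdgfra, the receptor that marks fibroblasts, read 17.9 to 37.3 FPKM in AOM/DSS libraries (median 26.8), against 10.1 and 9.81 FPKM in Control libraries (log2 change 1.34 ± 0.22, adjusted p = 0.00292). Il11, a cytokine that activated fibroblasts make, read 4.40 to 80.1 FPKM in AOM/DSS libraries (median 20.8), against 0.368 and 0.0380 FPKM in Control libraries (log2 change 4.23 ± 0.71, adjusted p = 0.00356), with ASA+CUR replicate 1 highest and Model replicate 1 lowest, and all above Control. Gsn, gelsolin, read 109 to 220.2 FPKM in AOM/DSS libraries (median 154), against 362 and 356 FPKM in Control libraries (log2 change -1.18 ± 0.23, adjusted p = 0.00637), with an adjusted p of 0.0669 without Control replicate 0 and 0.0655 without Control replicate 1. All AOM/DSS libraries were below Control for Gsn.

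All 24 tested smooth muscle genes fell (median -3.26), and 22 fell when either Control library or the 3 Krt5-high libraries were left out. Actg2, enteric smooth muscle actin, read 35.0 to 120.1 FPKM in AOM/DSS libraries (median 63.4), against 2079 and 1229 FPKM in Control libraries (log2 change -4.65 ± 0.29, adjusted p = 6.59e-05). Cnn1, calponin, read 7.68 to 47.4 FPKM in AOM/DSS libraries (median 20.4), against 963 and 603 FPKM in Control libraries (log2 change -5.14 ± 0.26, adjusted p = 4.71e-05). Tpm2, a tropomyosin, read 14.5 to 36.3 FPKM in AOM/DSS libraries (median 18.8), against 416 and 251 FPKM in Control libraries (log2 change -3.93 ± 0.21, adjusted p = 4.71e-05). Both Control libraries stood far above every AOM/DSS library, and the 2 Model libraries were the highest AOM/DSS libraries for Actg2 and Cnn1. The list median lay at -3.84 to -2.32 over the AOM/DSS libraries. Nerve followed muscle in the counts: 26 of 28 tested genes of enteric neurons and glia fell (median -2.19), 22 without Control replicate 0 and 24 without Control replicate 1. The median was -1.01 with 5 FPKM added in place of 1 and -3.76 with 0.1 FPKM added. Prph, peripherin, a filament of peripheral neurons, read 0 to 1.02 FPKM in AOM/DSS libraries (median 0.264), against 17.8 and 17.9 FPKM in Control libraries (log2 change -3.83 ± 0.15, adjusted p = 1.98e-05). Snap25, a synaptic vesicle fusion protein, read 0.0672 to 1.03 FPKM in AOM/DSS libraries (median 0.550), against 14.5 and 13.9 FPKM in Control libraries (log2 change -3.34 ± 0.21, adjusted p = 6.59e-05). Sox10, the glial transcription factor, read 0 to 0.229 FPKM in AOM/DSS libraries (median 0.0738), against 2.24 and 1.96 FPKM in Control libraries (log2 change -1.49 ± 0.14, adjusted p = 0.000286). For each the highest AOM/DSS library was far below Control. Of 8 genes of the pacemaker cells of gut muscle, 1 rose (Gja1, the gap junction protein connexin 43, log2 change 1.65, adjusted p = 0.00179) and 3 fell, among them Kit, the receptor that defines those cells and mast cells, at 3.37 to 12.2 FPKM in AOM/DSS libraries (median 5.75), against 24.4 and 24.4 FPKM in Control libraries (log2 change -1.85 ± 0.25, adjusted p = 0.00149). Etv1, their transcription factor, read 0.526 to 1.12 FPKM in AOM/DSS libraries (median 0.773), against 3.84 and 3.78 FPKM in Control libraries (log2 change -1.44 ± 0.14, adjusted p = 0.000342). Adipocyte genes fell in 4 of 11 tested members. That is 36.4% called, against 31.5% over all genes in both directions. Adipoq, adiponectin, read 0 to 0.245 FPKM in AOM/DSS libraries (median 0), against 6.004 and 6.88 FPKM in Control libraries (log2 change -2.84 ± 0.15, adjusted p = 4.71e-05). Retn, resistin, read 0 to 0.164 FPKM in AOM/DSS libraries (median 0), against 6.02 and 5.85 FPKM in Control libraries (log2 change -2.74 ± 0.14, adjusted p = 4.71e-05). The AOM/DSS libraries were at or near 0 for both genes. How far the muscle, nerve and fat in each piece of tissue bear on the other changes was not tested. The largest rise of the endothelial list was Prox1 (log2 change 4.24), whose values are given with the stem cell genes. Endothelial genes rose in 6 of 20 tested members and fell in none, and 2 without Control replicate 0 and 2 without Control replicate 1 rose; Pecam1, the vessel marker, read 17.4 to 53.9 FPKM in AOM/DSS libraries (median 21.2), against 18.8 and 20.4 FPKM in Control libraries with overlap (adjusted p = 0.447).

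Neutrophil genes and the chemokines that attract these cells included 14 of 19 tested members that rose (median 3.03) and none that fell. The rises numbered 10 without Control replicate 0 and 10 without Control replicate 1. The median was 1.35 with 5 FPKM added in place of 1. Cxcl5, a ligand of the neutrophil receptor Cxcr2, read 18.3 to 100.1 FPKM in AOM/DSS libraries (median 63.2), against 0.275 and 0.182 FPKM in Control libraries (log2 change 5.46 ± 0.53, adjusted p = 0.000325). Il1r2, the decoy receptor for interleukin 1, read 5.11 to 8.44 FPKM in AOM/DSS libraries (median 6.80), against 0.418 and 0.576 FPKM in Control libraries (log2 change 2.38 ± 0.16, adjusted p = 8.22e-05). The groups did not overlap, and the AOM/DSS libraries lay close together for Il1r2. Of the genes of macrophages and dendritic cells, 14 of 24 rose (median 1.21) and 1 fell. The rises numbered 5 without Control replicate 0 and 3 without Control replicate 1. The median was 0.79 with 5 FPKM added in place of 1. Itgam, the integrin CD11b, read 3.81 to 11.8 FPKM in AOM/DSS libraries (median 7.995), against 2.43 and 2.22 FPKM in Control libraries (log2 change 1.37 ± 0.22, adjusted p = 0.00326). Fcgr1, the high-affinity receptor for IgG, read 2.40 to 7.70 FPKM in AOM/DSS libraries (median 3.85), against 0.842 and 0.612 FPKM in Control libraries (log2 change 1.57 ± 0.27, adjusted p = 0.00412), with an adjusted p of 0.0589 without Control replicate 1. Ptprc, CD45, which all leukocytes carry, read 7.56 to 15.9 FPKM in AOM/DSS libraries (median 9.49), against 6.26 and 4.73 FPKM in Control libraries, above both Control libraries in every AOM/DSS library but short of the threshold (adjusted p = 0.0595).

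Cytokine genes rose in 13 of 18 tested members (median 1.40) and fell in 1, Il18 (its adjusted p was 0.0705 without Control replicate 1). The rises numbered 9 without Control replicate 0 and 8 without Control replicate 1. The median was 0.79 with 5 FPKM added in place of 1 and 2.30 with 0.1 FPKM added, and 0.46 with no filter on low values. Il1b read 17.9 to 53.5 FPKM in AOM/DSS libraries (median 38.3), against 1.77 and 1.17 FPKM in Control libraries (log2 change 3.90 ± 0.33, adjusted p = 0.000172). Il1a, the other ligand of the interleukin 1 receptor, read 1.46 to 6.05 FPKM in AOM/DSS libraries (median 3.99), against 0.0452 and 0.0747 FPKM in Control libraries (log2 change 2.19 ± 0.26, adjusted p = 0.000725). The groups were apart for both. Tnf, tumour necrosis factor, read 4.04 to 13.1 FPKM in AOM/DSS libraries (median 7.21), against 0.338 and 0.419 FPKM in Control libraries (log2 change 2.53 ± 0.22, adjusted p = 0.000216). Il23a, the p19 subunit of interleukin 23, read 3.07 to 13.6 FPKM in AOM/DSS libraries (median 7.54), against 0 and 0.171 FPKM in Control libraries (log2 change 2.86 ± 0.32, adjusted p = 0.000604). Both were above Control in every AOM/DSS library. Il6 also lay above Control in every AOM/DSS library, at 0.342 to 12.3 FPKM in AOM/DSS libraries (median 1.19), against 0.0893 and 0 FPKM in Control libraries, but its spread left it short of the threshold (adjusted p = 0.129); without the 3 Krt5-high libraries its adjusted p was 0.0306. Chemokine genes rose in 11 of 26 tested members and fell in 2. The rises numbered 4 without Control replicate 0 and 3 without Control replicate 1, and 4 fell without the 3 Krt5-high libraries. Ccl2, which attracts monocytes, read 7.54 to 34.1 FPKM in AOM/DSS libraries (median 9.85), against 2.71 and 1.28 FPKM in Control libraries (log2 change 2.09 ± 0.32, adjusted p = 0.00234). ASA replicate 0 stood alone at the top. Ccl6 read 67.2 to 196 FPKM in AOM/DSS libraries (median 123), against 394 and 402 FPKM in Control libraries (log2 change -1.78 ± 0.16, adjusted p = 0.000219), below Control throughout. Of 20 NF-kB pathway genes 10 rose and none fell (median 0.49). The rises numbered 3 without Control replicate 0 and 3 without Control replicate 1, 6 without ASA+CUR replicate 1 and 5 without the 3 Krt5-high libraries. Icam1, an adhesion molecule that binds leukocytes, read 17.3 to 31.8 FPKM in AOM/DSS libraries (median 20.2), against 5.98 and 4.63 FPKM in Control libraries (log2 change 1.83 ± 0.19, adjusted p = 0.000414). Nfkbie, an inhibitor of NF-kB, read 6.39 to 9.78 FPKM in AOM/DSS libraries (median 9.10), against 2.97 and 3.50 FPKM in Control libraries (log2 change 1.17 ± 0.18, adjusted p = 0.00249). Both genes had AOM/DSS and Control apart.

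Of the interferon response genes 17 of 35 rose (median 1.21) and none fell, although only 11 lay above Control in every AOM/DSS library. The rises numbered 5 without Control replicate 0 and 4 without Control replicate 1. Usp18, the protease that removes Isg15 from proteins, read 8.67 to 41.4 FPKM in AOM/DSS libraries (median 20.3), against 1.63 and 1.26 FPKM in Control libraries (log2 change 3.09 ± 0.41, adjusted p = 0.00136). Ifi47, an interferon-induced GTPase, read 8.84 to 66.6 FPKM in AOM/DSS libraries (median 27.2), against 4.89 and 3.82 FPKM in Control libraries (log2 change 2.42 ± 0.38, adjusted p = 0.00269). Ifit2, which blocks translation of viral RNA, read 3.76 to 34.4 FPKM in AOM/DSS libraries (median 16.4), against 2.69 and 2.69 FPKM in Control libraries (log2 change 2.21 ± 0.32, adjusted p = 0.00200). These genes did not overlap Control, but ASA+CUR replicate 1 was close to it for Ifit2, at 3.76 FPKM. The list median ran over AOM/DSS libraries at -0.09 to 2.60, lowest in ASA+CUR replicate 1 and highest in CUR replicate 0. Of the T and NK cell genes 11 of 21 rose and 1 fell. The rises numbered 2 without Control replicate 0 and 0 without Control replicate 1, 7 without ASA+CUR replicate 0 and 17 without Model replicate 0. Gzmb, granzyme B of cytotoxic cells, read 1.40 to 5.07 FPKM in AOM/DSS libraries (median 2.67), against 0.787 and 0.217 FPKM in Control libraries (log2 change 1.37 ± 0.25, adjusted p = 0.00491). Its adjusted p was 0.0786 without Control replicate 1. Ctla4, a receptor that restrains T cells, read 0.989 to 7.23 FPKM in AOM/DSS libraries (median 2.65), against 0.417 and 0.115 FPKM in Control libraries (log2 change 1.60 ± 0.38, adjusted p = 0.0154). Its adjusted p was 0.0821 without Control replicate 0 and 0.141 without Control replicate 1. Both were above Control in all AOM/DSS libraries. Of 17 B and plasma cell genes 2 rose and 1 fell, no more than the 14.6% and 16.9% over all genes. The rises numbered 1 without Control replicate 0 and 1 without Control replicate 1. Prdm1, the plasma cell factor Blimp-1 that epithelium and T cells also use, read 3.53 to 6.003 FPKM in AOM/DSS libraries (median 5.16), against 1.13 and 0.675 FPKM in Control libraries (log2 change 1.65 ± 0.17, adjusted p = 0.000460). Jchain, the joining chain of secreted antibodies, read 72.2 to 1038 FPKM in AOM/DSS libraries (median 153), against 483 and 189.7 FPKM in Control libraries with overlap (adjusted p = 0.250). Mast cell genes rose in 4 of 14 and fell in 1, 1 rose without either Control library and 8 without ASA replicate 0. That is 35.7% called, near the 31.5% over all genes, and nothing is read from the count. The member that fell was Kit (log2 change -1.85), given with the pacemaker cell genes. Il1rl1, the interleukin 33 receptor, read 23.3 to 192 FPKM in AOM/DSS libraries (median 83.8), against 3.66 and 1.56 FPKM in Control libraries (log2 change 4.60 ± 0.48, adjusted p = 0.000434), above Control throughout. Of class II presentation genes 3 of 14 rose (2 without Control replicate 0 and 1 without Control replicate 1), none fell, and among the rises was the costimulatory ligand Cd80, at 1.10 to 3.21 FPKM in AOM/DSS libraries (median 1.89), against 0.587 and 0.220 FPKM in Control libraries (log2 change 1.07 ± 0.16, adjusted p = 0.00233).

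**Figure D2:**
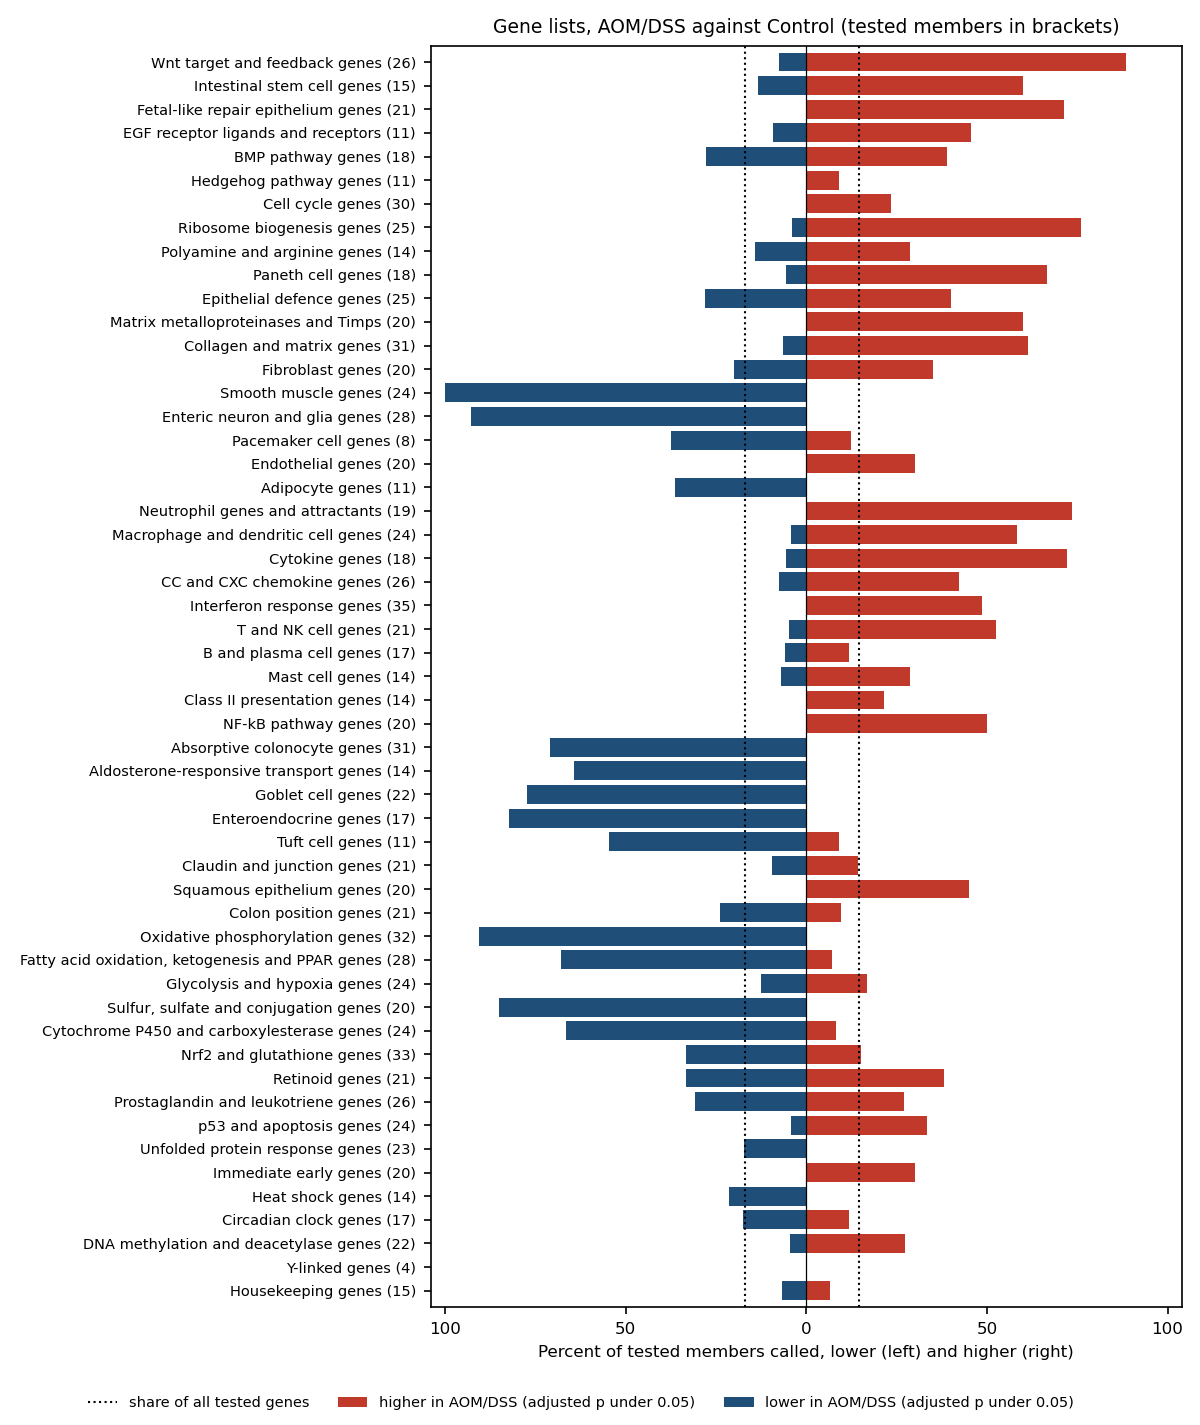
Percent of the tested members of each of 53 gene lists that were called lower (left, blue) or higher (right, red) in AOM/DSS against Control at an adjusted p of 0.05, with dotted lines at 16.9% lower and 14.6% higher, the shares of all tested genes. All 24 smooth muscle genes and 29 of 32 oxidative phosphorylation genes point left, and 23 of 26 Wnt genes and 14 of 19 neutrophil genes point right.

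Genes of differentiated epithelium fell while most pan-epithelial markers overlapped. Absorptive colonocyte genes fell in 22 of 31 tested members and rose in none (median -1.71). The falls numbered 15 without Control replicate 0 and 12 without Control replicate 1. Aqp8, a water channel of surface colonocytes, read 7.71 to 132 FPKM in AOM/DSS libraries (median 12.6), against 314 and 369.9 FPKM in Control libraries (log2 change -4.02 ± 0.47, adjusted p = 0.000711). Slc26a3, the chloride-bicarbonate exchanger of the colon surface, read 6.80 to 81.2 FPKM in AOM/DSS libraries (median 19.2), against 295 and 278 FPKM in Control libraries (log2 change -3.75 ± 0.53, adjusted p = 0.00164). Gucy2c, the receptor for guanylin, read 25.3 to 45.3 FPKM in AOM/DSS libraries (median 37.2), against 84.4 and 103 FPKM in Control libraries (log2 change -1.38 ± 0.13, adjusted p = 0.000281). No AOM/DSS library reached Control for these genes. Krt20, a keratin of mature surface cells, and Car1, a colonic carbonic anhydrase, overlapped Control. Krt20 read 199 to 1149 FPKM in AOM/DSS libraries (median 342), against 488 and 496 FPKM in Control libraries (adjusted p = 0.611). Car1 read 124 to 2215 FPKM in AOM/DSS libraries (median 426), against 655 and 550.1 FPKM in Control libraries (adjusted p = 0.506), with CUR replicate 0 highest for both. Aldosterone-responsive transport genes fell in 9 of 14 tested members (median -1.26). The falls numbered 6 without Control replicate 0 and 4 without Control replicate 1. Hsd11b2, which shields the mineralocorticoid receptor from cortisol-type hormones, read 31.6 to 116 FPKM in AOM/DSS libraries (median 60.04), against 160 and 296 FPKM in Control libraries (log2 change -1.79 ± 0.28, adjusted p = 0.00243). Hsd11b2 lay below Control in all 8 libraries.

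Goblet cell genes fell in 17 of 22 tested members and rose in none (median -1.57). The falls numbered 12 without Control replicate 0 and 15 without Control replicate 1. Atoh1, the transcription factor that commits cells to the secretory lineage, read 3.97 to 15.4 FPKM in AOM/DSS libraries (median 11.8), against 44.7 and 49.8 FPKM in Control libraries (log2 change -2.13 ± 0.18, adjusted p = 0.000187). Clca1, a protein secreted with mucus, read 58.99 to 423 FPKM in AOM/DSS libraries (median 184), against 8710 and 2640 FPKM in Control libraries (log2 change -4.76 ± 0.49, adjusted p = 0.000434). Zg16, a lectin of the mucus layer, read 395 to 3876 FPKM in AOM/DSS libraries (median 701), against 4640 and 5628 FPKM in Control libraries (log2 change -2.46 ± 0.31, adjusted p = 0.00104). The groups were apart, narrowly for Zg16, where CUR replicate 0 read 3876 FPKM. Enteroendocrine genes fell in 14 of 17 (median -2.17). The falls numbered 10 without Control replicate 0 and 9 without Control replicate 1. The median was -1.08 with 5 FPKM added in place of 1. Gcg, the precursor of the hormone GLP-1, read 3.59 to 12.8 FPKM in AOM/DSS libraries (median 7.12), against 112 and 103 FPKM in Control libraries (log2 change -3.79 ± 0.14, adjusted p = 1.86e-05). Tph1, the enzyme of serotonin synthesis in enterochromaffin cells, read 1.06 to 4.16 FPKM in AOM/DSS libraries (median 2.53), against 14.4 and 20.03 FPKM in Control libraries (log2 change -2.39 ± 0.19, adjusted p = 0.000142). Control was above all AOM/DSS libraries for both. Tuft cell genes fell in 6 of 11 and rose in 1: Trpm5, their taste-type ion channel, read 0.0625 to 0.683 FPKM in AOM/DSS libraries (median 0.400), against 5.10 and 4.80 FPKM in Control libraries (log2 change -2.12 ± 0.16, adjusted p = 0.000107). Avil, an actin-binding protein of tuft cells, read 15.8 to 36.3 FPKM in AOM/DSS libraries (median 32.1), against 4.55 and 4.79 FPKM in Control libraries (log2 change 2.39 ± 0.24, adjusted p = 0.000352). The direction was the same in all 8 libraries for each of these 2 genes and opposite between them. Claudin and junction genes rose in 3 of 21 and fell in 2, near the background share; no fall was left without either Control library.

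Squamous epithelium genes rose in 9 of 20 tested members and fell in none (median 1.15), but the list median ran over AOM/DSS libraries at 0.08 to 3.02. The rises numbered 2 without Control replicate 0 and 2 without Control replicate 1. The median was 0.50 with 5 FPKM added in place of 1 and 2.76 with 0.1 FPKM added. It was 3.41 over the members that reached 5 FPKM in 2 libraries and 0.50 without the 3 Krt5-high libraries. Krt14, a keratin of basal squamous cells, read 9.97 to 198 FPKM in AOM/DSS libraries (median 58.3), against 0.164 and 0.589 FPKM in Control libraries (log2 change 5.42 ± 0.59, adjusted p = 0.000536). Ly6d, a surface protein of squamous cells among others, read 58.4 to 253 FPKM in AOM/DSS libraries (median 120.4), against 13.6 and 6.29 FPKM in Control libraries (log2 change 3.50 ± 0.50, adjusted p = 0.00184), above Control in every AOM/DSS library. Mt4, a metallothionein of stratified epithelium, is not in the squamous list. Mt4 read 64.03 to 739 FPKM in AOM/DSS libraries (median 185), high also in those with little Krt5, and was listed at 0 in both Control libraries (adjusted p = 0.000172). Krt5, the partner keratin of Krt14, was at 10.3 FPKM in Model replicate 0, 94.6 FPKM in ASA replicate 0 and 212 FPKM in ASA+CUR replicate 0. It was at 0.0308 to 0.130 FPKM in the other 5 AOM/DSS libraries, and at 0.161 and 0.0667 FPKM in Control libraries (adjusted p = 0.468). Trp63, the basal cell transcription factor, was highest in 2 of the same 3 libraries, with 2.42 FPKM in ASA replicate 0 and 5.64 FPKM in ASA+CUR replicate 0, and was listed at 0 in both Control libraries (adjusted p = 0.469). With those 3 libraries left out, 3059 genes were called in AOM/DSS against Control. Colon position genes, which differ along the length of the colon, rose in 2 of 21 and fell in 5 (median -0.11). That is 33.3% called, near the 31.5% over all genes, and nothing is read from the count. The falls numbered 2 without Control replicate 0 and 1 without Control replicate 1, 3 without ASA+CUR replicate 1, and 5 rose without CUR replicate 0. The homeobox gene Evx1 read 11.5 to 21.1 FPKM in AOM/DSS libraries (median 14.8), against 1.11 and 1.24 FPKM in Control libraries (log2 change 2.92 ± 0.19, adjusted p = 7.35e-05). The homeobox gene Hoxb5 read 0.155 to 0.875 FPKM in AOM/DSS libraries (median 0.349), against 5.95 and 4.92 FPKM in Control libraries (log2 change -2.15 ± 0.17, adjusted p = 0.000141), with no overlap in either. Cdx2, the homeobox factor of intestinal identity, was at 5.22 to 11.4 FPKM in ASA replicate 0, CUR replicate 1 and both ASA+CUR libraries and at 61.1 to 126 FPKM in the other 4 AOM/DSS libraries, against 139 and 124 FPKM in Control libraries (adjusted p = 0.0857). The part that the position of the piece of colon plays in the other changes was not tested.

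Genes of energy metabolism in mitochondria fell. Oxidative phosphorylation genes fell in 29 of 32 tested members and rose in none (median -0.86). The falls numbered 10 without Control replicate 0 and 12 without Control replicate 1, and 19 without the 3 Krt5-high libraries. Sdhb, a subunit of complex II, read 109.6 to 186 FPKM in AOM/DSS libraries (median 132), against 309 and 293 FPKM in Control libraries (log2 change -1.15 ± 0.14, adjusted p = 0.000755). Ndufb5 of complex I read 66.01 to 138 FPKM in AOM/DSS libraries (median 85.2), against 182 and 182 FPKM in Control libraries (log2 change -1.04 ± 0.15, adjusted p = 0.00209). Both were below Control in every AOM/DSS library. Fatty acid oxidation, ketogenesis and PPAR genes fell in 19 of 28 (median -1.10) and rose in 2. The falls numbered 16 without Control replicate 0 and 12 without Control replicate 1. Ppara, the nuclear receptor of that programme, read 0.328 to 0.977 FPKM in AOM/DSS libraries (median 0.853), against 4.19 and 5.16 FPKM in Control libraries (log2 change -1.73 ± 0.20, adjusted p = 0.000654). Acat1, a mitochondrial thiolase, read 24.8 to 34.9 FPKM in AOM/DSS libraries (median 29.1), against 65.9 and 75.4 FPKM in Control libraries (log2 change -1.27 ± 0.12, adjusted p = 0.000281). Bdh1, the ketone body dehydrogenase, read 20.1 to 34.8 FPKM in AOM/DSS libraries (median 23.8), against 63.1 and 69.7 FPKM in Control libraries (log2 change -1.38 ± 0.15, adjusted p = 0.000583). No AOM/DSS library overlapped Control. Of 24 glycolysis and hypoxia genes 4 rose and 3 fell, near the 14.6% and 16.9% over all genes. The rises numbered 3 without Control replicate 0 and 2 without Control replicate 1, and 5 fell without either CUR library. Slc16a3, the lactate exporter, read 24.4 to 56.8 FPKM in AOM/DSS libraries (median 38.3), against 5.57 and 4.49 FPKM in Control libraries (log2 change 2.70 ± 0.29, adjusted p = 0.000540), above Control in all libraries, and Pfkfb4, a regulator of glycolysis, read 4.29 to 6.75 FPKM in AOM/DSS libraries (median 4.99), against 10.7 and 11.8 FPKM in Control libraries (log2 change -1.002 ± 0.14, adjusted p = 0.00147), below it.

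Conjugation and detoxification genes also fell. Sulfur, sulfate and conjugation genes fell in 17 of 20 tested members and rose in none (median -1.65). The falls numbered 10 without Control replicate 0 and 8 without Control replicate 1. Sult1a1, a phenol sulfotransferase, read 3.03 to 36.1 FPKM in AOM/DSS libraries (median 10.1), against 195 and 277 FPKM in Control libraries (log2 change -4.41 ± 0.49, adjusted p = 0.000568). Ugt1a7c, a glucuronosyltransferase, read 14.6 to 36.98 FPKM in AOM/DSS libraries (median 24.1), against 102 and 113 FPKM in Control libraries (log2 change -2.16 ± 0.18, adjusted p = 0.000183). Cytochrome P450 and carboxylesterase genes fell in 16 of 24 and rose in 2 (median -1.61). The falls numbered 12 without Control replicate 0 and 10 without Control replicate 1. The median was -1.04 with 5 FPKM added in place of 1. Ces2c, a carboxylesterase that cleaves ester drugs, read 3.83 to 18.4 FPKM in AOM/DSS libraries (median 8.69), against 84.4 and 119 FPKM in Control libraries (log2 change -3.30 ± 0.22, adjusted p = 8.73e-05). Ces2a read 4.02 to 21.6 FPKM in AOM/DSS libraries (median 8.47), against 37.1 and 81.3 FPKM in Control libraries (log2 change -2.52 ± 0.34, adjusted p = 0.00143). All 4 genes had every AOM/DSS library below Control. Ces1g, another carboxylesterase, read 5.66 to 18.3 FPKM in AOM/DSS libraries (median 7.79), against 3.58 and 4.26 FPKM in Control libraries (log2 change 1.04 ± 0.14, adjusted p = 0.00117), above Control in all 8 libraries. Of 33 Nrf2 and glutathione genes 5 rose and 11 fell. The rises numbered 2 without Control replicate 0 and 1 without Control replicate 1. Gstm3, a glutathione transferase, read 2.68 to 10.3 FPKM in AOM/DSS libraries (median 6.52), against 30.5 and 33.7 FPKM in Control libraries (log2 change -2.20 ± 0.19, adjusted p = 0.000191). Hmox1, heme oxygenase 1, read 20.9 to 312 FPKM in AOM/DSS libraries (median 65.8), against 4.18 and 3.26 FPKM in Control libraries (log2 change 3.87 ± 0.66, adjusted p = 0.00378). Its adjusted p was 0.0512 without Control replicate 1. Nqo1, a quinone reductase, read 9.08 to 24.2 FPKM in AOM/DSS libraries (median 17.3), against 19.7 and 22.1 FPKM in Control libraries with overlap (adjusted p = 0.379). Retinoid genes rose in 8 of 21 and fell in 7. The rises numbered 4 without Control replicate 0 and 4 without Control replicate 1, 5 without ASA+CUR replicate 1, and 3 without Control replicate 0 and 4 without Control replicate 1 fell. Stra6, the cell surface receptor for the retinol carrier, read 29.1 to 154 FPKM in AOM/DSS libraries (median 85.9), against 0.408 and 0.602 FPKM in Control libraries (log2 change 5.63 ± 0.58, adjusted p = 0.000437). It was above Control in every AOM/DSS library, as were the enzymes that make retinaldehyde and retinoic acid, Rdh10 and Aldh1a3. Rdh10 read 61.6 to 119.6 FPKM in AOM/DSS libraries (median 84.5), against 10.9 and 10.9 FPKM in Control libraries (log2 change 2.80 ± 0.23, adjusted p = 0.000158). Aldh1a3 read 20.6 to 157 FPKM in AOM/DSS libraries (median 72.1), against 2.02 and 1.62 FPKM in Control libraries (log2 change 4.52 ± 0.42, adjusted p = 0.000273). Retsat, retinol saturase, read 7.69 to 15.3 FPKM in AOM/DSS libraries (median 11.3), against 40.6 and 44.7 FPKM in Control libraries (log2 change -1.85 ± 0.19, adjusted p = 0.000434). Retsat was below Control in every AOM/DSS library.

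Prostaglandin and leukotriene genes, the pathway of aspirin's targets, were split, with 7 up and 8 down of 26. The rises numbered 4 without Control replicate 0 and 4 without Control replicate 1, and 1 without Control replicate 0 and 3 without Control replicate 1 fell. Ptgs2, the inducible cyclooxygenase COX-2, read 1.81 to 43.4 FPKM in AOM/DSS libraries (median 15.9), against 4.99 and 1.57 FPKM in Control libraries (adjusted p = 0.0732). Ptgs1, the constitutive enzyme, read 7.93 to 18.9 FPKM in AOM/DSS libraries (median 13.7), against 18.5 and 14.6 FPKM in Control libraries (adjusted p = 0.296). The groups overlapped for both; 7 of 8 AOM/DSS libraries were above both Control libraries for Ptgs2, with Model replicate 1 within the Control range. Ptges, the microsomal prostaglandin E synthase, read 7.33 to 16.1 FPKM in AOM/DSS libraries (median 10.1), against 2.36 and 2.51 FPKM in Control libraries (log2 change 1.77 ± 0.24, adjusted p = 0.00149). Abcc4, an exporter of prostaglandins, read 15.8 to 34.3 FPKM in AOM/DSS libraries (median 22.5), against 3.64 and 4.34 FPKM in Control libraries (log2 change 2.22 ± 0.25, adjusted p = 0.000597). Tbxa2r, the thromboxane receptor, read 0.381 to 1.39 FPKM in AOM/DSS libraries (median 0.703), against 3.17 and 2.20 FPKM in Control libraries (log2 change -1.04 ± 0.16, adjusted p = 0.00282). Ptges and Abcc4 were above Control in every AOM/DSS library and Tbxa2r below.

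Of 24 p53 and apoptosis genes 8 rose and 1 fell. That is 37.5% called, against 31.5% over all genes. The rises numbered 4 without Control replicate 0 and 4 without Control replicate 1. Cdkn2a, the locus of a pair of tumour suppressors that arrest the cell cycle, read 5.66 to 38.6 FPKM in AOM/DSS libraries (median 18.5) and was listed at 0 in both Control libraries (adjusted p = 0.000833). Trp53 itself read 57.2 to 83.6 FPKM in AOM/DSS libraries (median 69.1), against 37.4 and 37.4 FPKM in Control libraries (log2 change 0.89 ± 0.12, adjusted p = 0.00137). Phlda3, a p53 target, read 24.9 to 48.9 FPKM in AOM/DSS libraries (median 36.8), against 12.8 and 8.49 FPKM in Control libraries (log2 change 1.71 ± 0.24, adjusted p = 0.00159). Each lay above Control in every AOM/DSS library. Of the immediate early genes 6 of 20 rose, none fell, and the rises numbered 2 without Control replicate 0 and 2 without Control replicate 1. Ier3, an early growth response gene that protects cells from apoptosis, read 40.4 to 159.7 FPKM in AOM/DSS libraries (median 77.9), against 15.7 and 9.79 FPKM in Control libraries (log2 change 2.62 ± 0.36, adjusted p = 0.00145). Unfolded protein response genes fell in 4 of 23 and rose in none, near the background of 16.9%, with 1 without Control replicate 0 and 1 without Control replicate 1 falling; Ern2, the stress sensor of mucus-producing cells, read 11.6 to 20.2 FPKM in AOM/DSS libraries (median 16.2), against 42.5 and 47.5 FPKM in Control libraries (log2 change -1.46 ± 0.21, adjusted p = 0.00177). Heat shock genes fell in 3 of 14, near the same background (1 without Control replicate 0 and 2 without Control replicate 1 fell), among them the small chaperone Cryab, which muscle makes in quantity, at 4.19 to 15.5 FPKM in AOM/DSS libraries (median 6.09), against 51.7 and 35.1 FPKM in Control libraries (log2 change -2.51 ± 0.31, adjusted p = 0.000984). Circadian clock genes rose in 2 of 17 and fell in 3, near the shares over all genes, and 1 without Control replicate 0 and 1 without Control replicate 1 fell; Arntl, the clock activator BMAL1, read 4.64 to 10.1 FPKM in AOM/DSS libraries (median 6.91), against 21.9 and 24.5 FPKM in Control libraries (log2 change -1.61 ± 0.18, adjusted p = 0.000545). DNA methylation and deacetylase genes rose in 6 of 22 by small amounts and fell in 1. That is 31.8% called, near the 31.5% over all genes, and nothing is read from the count. Without the 3 Krt5-high libraries 3 rose. Of 15 housekeeping genes 1, Gusb, rose at 48.2 to 73.6 FPKM in AOM/DSS libraries (median 53.8), against 25.5 and 24.2 FPKM in Control libraries (log2 change 1.15 ± 0.17, adjusted p = 0.00187) and 1, Sdha of complex II, fell at 102 to 132 FPKM in AOM/DSS libraries (median 111), against 197 and 224 FPKM in Control libraries (log2 change -0.90 ± 0.12, adjusted p = 0.00151). Actb, beta-actin, read 1369 to 2931 FPKM in AOM/DSS libraries (median 1678), against 1599 and 1470 FPKM in Control libraries (adjusted p = 0.617). Gapdh read 1022 to 1559 FPKM in AOM/DSS libraries (median 1239), against 1072 and 990.4 FPKM in Control libraries (adjusted p = 0.329). The groups overlapped for both. None of the 4 tested Y-linked genes was called.

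**Figure D3:**
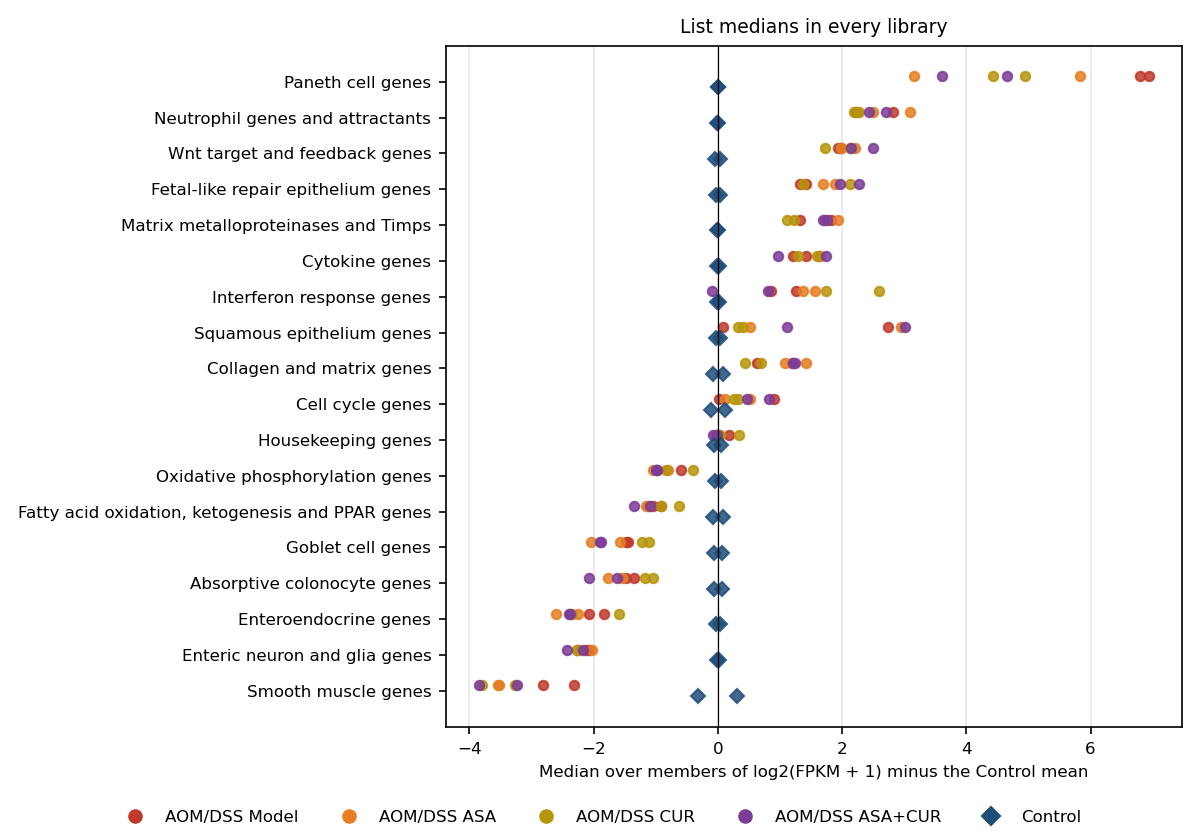
Median over the tested members of 18 gene lists of log2(FPKM + 1) minus the Control mean, in every library (circles AOM/DSS, coloured by diet; diamonds Control). The 8 circles stay together for enteric neuron and glia genes (-2.43 to -2.02) and spread most for Paneth cell genes (3.15 to 6.93) and squamous epithelium genes (0.08 to 3.02). Several enteric neuron and glia genes lay near 0 in AOM/DSS libraries (Prph 0 to 1.02 FPKM, Sox10 0 to 0.229 FPKM). There the added 1 FPKM leaves little room for spread.

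The 8 AOM/DSS libraries were also set side by side over the called genes, which were themselves chosen on these libraries, so the values describe those genes and test nothing. The slope of a library's change on the mean change lay between 0.926 in Model replicate 0 and 1.14 in ASA+CUR replicate 1. In each library at least 2000 of the 2057 genes called higher were above both Control libraries and at least 2242 of the 2378 called lower were below them, CUR replicate 0 having the fewest of both. Of the 2113 genes changed at least 2-fold, 759 varied by less than 1 on the log2 scale between the lowest and highest AOM/DSS library and 102 by more than 3; the median was 1.21. The test for differences among the Model, ASA, CUR and ASA+CUR groups called 2 of 14061 genes (0.0142%), Hba-a2 and 1 transcript with no gene name, and 946 passed an unadjusted p of 0.05. It has 2 libraries a group, and a p that misses the threshold does not show that the diets left the change alone.

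Hba-a2, an alpha-globin gene of red blood cells, was at 29.95 and 17.3 FPKM in ASA libraries and 9.22 and 18.1 FPKM in ASA+CUR libraries. It was at 0.0354 to 0.0365 FPKM in the Model and CUR libraries and at 0.0357 and 0.0353 FPKM in Control libraries (limma moderated F test, adjusted p = 0.0141). The almost identical gene Hba-a1 was not called in AOM/DSS against Control (mean 52.9 FPKM in AOM/DSS and 15.2 FPKM in Control, adjusted p = 0.241), and reads cannot be told apart between the copies. No gene was called among the groups without either Control library, Model replicate 0 or ASA replicate 0, or with the highest transcript per gene in place of the sum, and 17 were called without CUR replicate 1. The next genes of that test fell short of the threshold after adjustment and are given as values. Irgm2, an interferon-induced GTPase, was at 30.4 to 39.2 FPKM in the ASA and CUR libraries, 21.3 and 24.5 FPKM in Model libraries, 14.5 and 11.99 FPKM in ASA+CUR libraries and 7.69 and 8.93 FPKM in Control libraries (adjusted p = 0.212). Steap4, a metalloreductase, was at 26.8 to 37.9 FPKM in the Model and ASA libraries and at 8.49 to 18.7 FPKM in the CUR and ASA+CUR libraries, against 3.84 and 2.69 FPKM in Control libraries (adjusted p = 0.212). Both genes were above Control in all 8 libraries. Tff3, the trefoil peptide of goblet cells, was at 855 to 999 FPKM in the ASA and ASA+CUR libraries and at 1600 to 3027 FPKM in the Model and CUR libraries, against 3293 and 3452 FPKM in Control libraries (adjusted p = 0.347); in AOM/DSS against Control its adjusted p was 0.0647 without the 3 Krt5-high libraries. Cd177, a surface protein of neutrophils that the gut also expresses, was at 126 to 149.9 FPKM in the Model and ASA libraries, 32.6 to 70.7 FPKM in the CUR and ASA+CUR libraries, and 108 and 79.6 FPKM in Control libraries, so that AOM/DSS libraries lay on both sides of Control (adjusted p = 0.212).

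**Figure D4:**
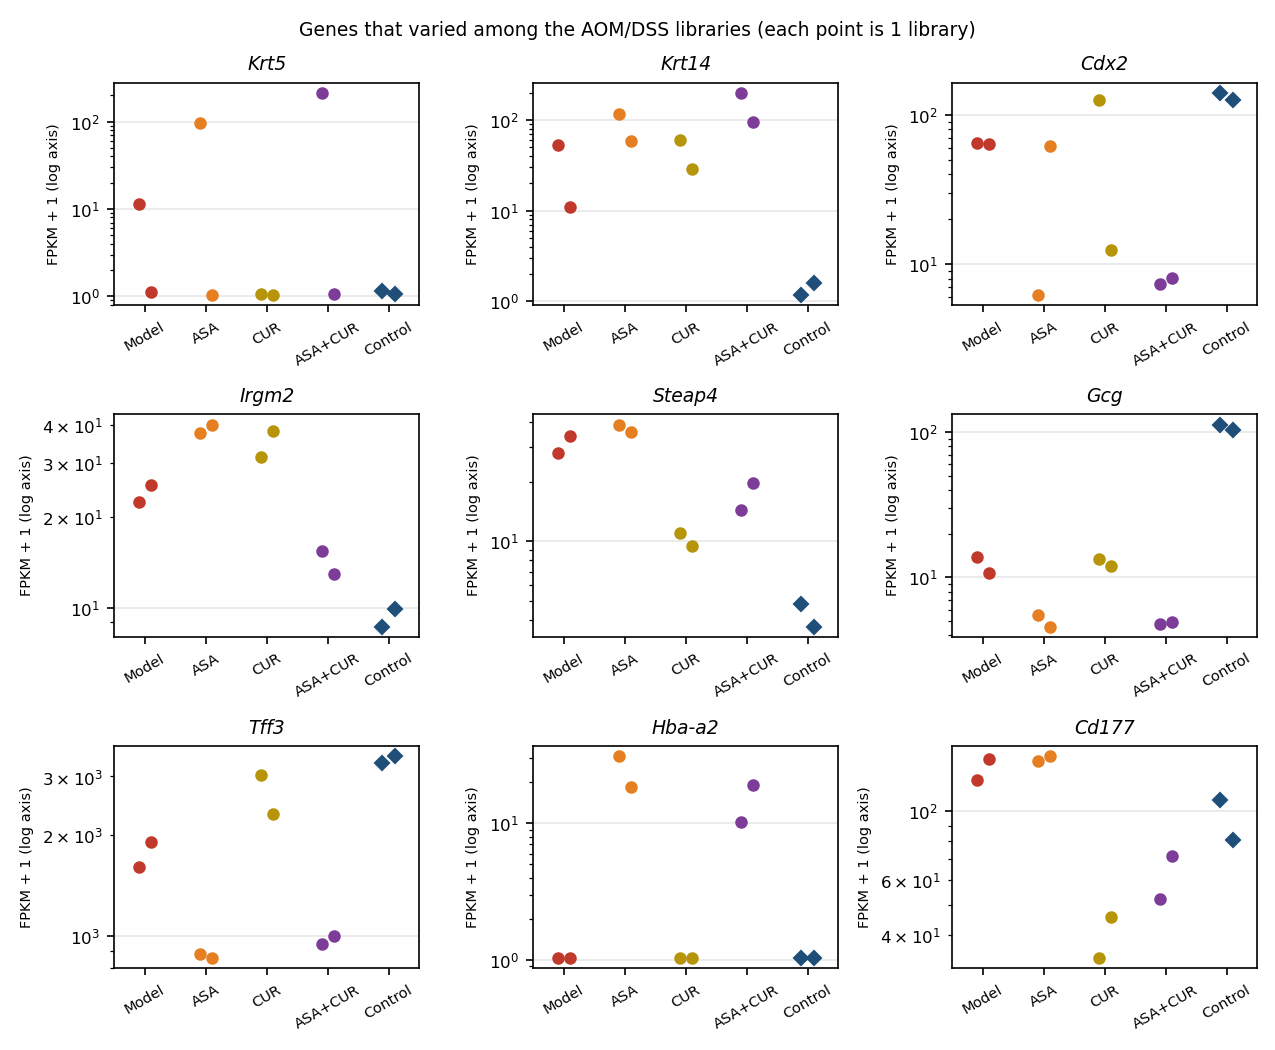
FPKM plus 1 on a log axis of 9 genes that varied among the AOM/DSS libraries, by group, each point 1 library. Krt5 is high in 3 AOM/DSS libraries (10.3, 94.6 and 212 FPKM), Hba-a2 in the 4 libraries of the ASA and ASA+CUR groups, and Gcg is at 3.59 to 12.8 FPKM in every AOM/DSS library, against 112 and 103 FPKM in Control libraries.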

How the data were processed

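RNA was sequenced from 10 mouse colon libraries in 5 groups of 2. The authors deposited 1 table of FPKM per transcript; per the submitters' processing notes, TopHat2 2.0.9, Bowtie2 2.1.0.0, bcl2fastq 2.17.1.14 and also Cuffdiff were run, with mm10 and GRCm38. The TruSeq RNA kit named in the labels does not mark strand, and how reads with several matches were handled is not given in those notes, so near-identical copies and overlapping or antisense genes are uncertain. FPKM keep no read depth, so no interval from counting could be given, and fold changes rest on the spread between libraries.

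Of 30073 transcripts, 29443 matched a gene in RefSeq GRCm38.p6 and 179 in GENCODE, 451 had no gene name, and FPKM were summed per gene. The 14061 genes that reached 1 FPKM in 2 or more libraries were fitted with limma 3.58.1 (R 4.3.3) on log2(FPKM + 1) with an intensity trend, 5 group means and no covariate, and 2-sided p-values were adjusted by Benjamini and Hochberg over all of them. Replicate numbers did not pair the libraries. Alternatives were another pseudocount, filter, scaling or transcript choice, a 2-group fit, a replicate block, array weights and the removal of single libraries or groups.

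The genes described, the 53 gene lists and their members were chosen with earlier results of these data known. Of 1187 list entries, 1088 were tested, 85 lay below the filter on low values, and 14, among them Muc2 and Cd68, were not analysed here. The 1173 entries found in the data were 1108 distinct genes, because some genes are in several lists. Named genes were the 15 largest rises and falls by the least-changed library, up to 4 called members of each list with the smallest p, the 12 smallest p among AOM/DSS groups, and a fixed set of 16. Some genes that this rule picks are not reported here. Genes outside this rule (Krt5, Trp63, Mmp13, Nkd2, Sfrp5, Saa1, Il18, Ang4, Defa30 and its neighbours, Hba-a1, Slc26a3, Sox10, Car1, Cdh1, Cdh17, Krt8, Krt19, Vil1, Lgals4, Ptprc, Pecam1, Jchain, Fabp6, Apoa1) were chosen after their values were seen or as tissue markers. The removal of the 3 libraries with Krt5 above 10 FPKM was also chosen after the data were seen.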

Additional observations from a re-analysis of the deposited data

Results flagged for a closer look

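Of 219 named genes, 9 (4.11%) had an AOM/DSS library that stood apart from the other 7 by Dixon's criterion, which chance meets in about 1 of 20 such groups. Model replicate 0 stood apart upward for Cfd (1.04 FPKM), Nmu (0.406 FPKM) and Adipoq (0.245 FPKM), with Control libraries at 26.4 and 29.5 FPKM for Cfd, 29.6 and 11.3 FPKM for Nmu and 6.004 and 6.88 FPKM for Adipoq. The same library stood apart downward for Foxl1 (2.30 FPKM). Prox1 was lowest in CUR replicate 0 (5.74 FPKM). Epcam (1352 FPKM) and Actb (2931 FPKM) were highest in the same library. Ccl2 was highest in ASA replicate 0 (34.1 FPKM) and Cryab in Model replicate 1 (15.5 FPKM). Hba-a2 differed among the AOM/DSS groups (limma moderated F test, adjusted p = 0.0141).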

How the results depend on the processing

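A fit with 1 Control library left takes its spread from the AOM/DSS groups alone and compares them with a single Control value. How far either of these accounts for its lower counts was not tested. Leaving out single libraries in turn gave 1567 to 5417 called genes, 593 to 2533 of them higher and 974 to 2884 lower, and 1566 to 5127 called and outside the Control range. The lowest counts came without Control replicate 1; without Control replicate 0 they were 1662 called, 675 higher, 987 lower and 1662 outside the Control range. Of the 207 named genes called, 157 passed without any single library, 43 lost their call without Control replicate 0 and 44 without Control replicate 1. No named gene that was called changed direction under any alternative. These genes were mainly chosen for their shift or small p in the same libraries. Their direction was therefore nearly fixed in advance and tests nothing. With array weights 6712 genes were called, 3292 of them higher. Without the 3 Krt5-high libraries 1580 genes were called lower, and 12 named genes lost their call. List counts of 5 or fewer moved by at most 4 genes when single libraries were left out.

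The count of genes that differed among the AOM/DSS groups was 2 and depended on most settings. It was 0 with a pseudocount of 5, array weights, the highest transcript per gene or without the Model or the ASA group, 1 with a pseudocount of 0.1, at least 5 FPKM in 2 libraries, quantile normalization or without the 3 Krt5-high libraries, and 4 with no filter on low values or without the CUR group. Leaving out single libraries gave 0 to 17. The cause was not tested.

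Libraries with the same replicate number did not deviate together (r = -0.214 to 0.326 between groups), so the numbers do not pair the libraries. With the replicate number as a block 4262 genes were called in AOM/DSS against Control and 0 among the AOM/DSS groups. Under median scaling 39.7% of the called genes were higher, against 46.4% without it, and the median of all genes was -0.04, against 0.02.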
